A study of Mus musculus with 6 samples.

Results

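The proteins of the cytosolic ribosome are encoded by a family of short, very active genes. The 83 members described here are the protein-coding genes whose symbol begins with Rpl or Rps and continues with a ribosomal protein number, together with Rplp0, Rplp1, Rplp2 and Rpsa, out of 35905 genes in the data. Of these, 51 encode proteins of the large subunit and 32 proteins of the small subunit, and their transcripts number 498. A further 6 symbols of the same form (Rps4l, Rps3a2, Rps3a3, Rpl6l, Rpl32l and Rps12l1) belong to pseudogenes and were left out. RNA sequencing compared a pair of mouse breast cancer cell lines of the EO771 family, which stems from a mammary tumour and is kept in culture. The lines are labelled EO771-tdT-Parental and EO771-tdT-LM2, are called Parental and LM2 here, both carry the tdT tag in their names and the genotype label WT, and were each sampled in 3 libraries. Both grew for 48 h in culture flasks to roughly 75% confluence, in RPMI medium with 10% serum, and no treatment is named. How LM2 was obtained from the parental cells, and what the tag Ac6 in the Parental titles means, is not given in the sources used here. The labels do not say that replicates were separate cultures, so the p-values below reflect how far these libraries differ, and that spread may be purely technical.

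A ribosome holds a single copy of nearly every ribosomal protein, with the acidic stalk proteins Rplp1 and Rplp2 as the main exception, so cells make the set in balanced amounts and destroy the surplus that finds no place on ribosomal RNA. In mammals each protein is encoded, as a rule, by a single gene with introns, and these genes lie scattered over the genome beside a very large number of intronless pseudogene copies. Their mRNAs start with a cytosine followed by a run of pyrimidines, the terminal oligopyrimidine (TOP) tract, through which growth signals that pass by the mTOR kinase and the RNA-binding protein Larp1 control their translation. Growing tumour cells devote a large part of their mRNA to this family.

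Windows of 30 bases around the transcription start, 15 before it and 15 from it onward, follow, with the start as RefSeq places it on build GRCm38.p6. Of the 83 members, 63 matched the RefSeq table by symbol, with 75 start windows. The windows below belong to members on chromosomes 4 and 10, which held all members that rose and 4 of the 5 that fell most. They read 5′ to 3′ on the strand of the gene, and capitals mark the longest run of C and T in each, the first of them where runs tie, as they do in Rpl22 and Rps15. Where a gene had several starts in the RefSeq table, the window with the longest run was taken. Rps20 has no window here.
Rpl11 (chr4:136053379-136053408, minus strand): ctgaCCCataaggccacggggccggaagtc
Rpl22 (chr4:152324421-152324450, plus strand): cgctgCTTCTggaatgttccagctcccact
Rps6 (chr4:86857353-86857382, minus strand): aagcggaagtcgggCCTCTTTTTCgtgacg
Rps12 (chr10:23787195-23787224, minus strand): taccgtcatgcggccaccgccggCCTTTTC
Rps15 (chr10:80292416-80292445, plus strand): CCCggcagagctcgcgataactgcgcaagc
Rps26 (chr10:128626492-128626521, minus strand): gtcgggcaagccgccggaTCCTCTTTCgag
Rpl41 (chr10:128549154-128549183, minus strand): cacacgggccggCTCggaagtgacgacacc
The run was 10 bases long in Rps6, from the base just before the annotated start onward, and 9 bases long in Rps26, from the fourth transcribed base. It was 7 bases long in Rps12, from transcribed base 9 to the end of the window. The marked runs of 5 bases in Rpl22 and of 3 bases in Rpl11, Rps15 and Rpl41 end before the annotated start, so they lie outside the mRNA as annotated. Rpl22 also holds an unmarked run of equal length after the start, within the mRNA as annotated. Among the windows shown, long and short runs stood on both chromosomes. A run of at least 8 bases was present in 37.3% of the member windows, against 12.0% of the 32851 windows of all genes in the table. In the promoters of 300 bases, from 250 before the start to 50 after it, CCGGAAG, the core of sites for ETS factors, was found on either strand in 27 of the 75 member promoters and in 8.86% of all promoters. AAGATGGC, the core of sites for YY1, was found on either strand in 10.7% and 2.75%. The end of the first word can coincide with the beginning of the second. Among the genes shown, Rpl11, Rps6, Rps26 and Rpl41 held the first and Rpl22 the second in these longer promoters. These matches describe letters, not bound sites.

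The libraries held between 33922699 and 45849019 estimated counts. Levels within a gene are given below as CPM, estimated counts relative to the depth of the library after TMM scaling, and levels compared between genes as TPM, which are also scaled for transcript length. Of the mammary epithelial markers, Krt8 rose from 419 ± 6.61 CPM in the Parental libraries to 568 ± 10.4 in those of LM2 (SD, n = 3). Cdh1, Krt18 and Krt5 were below 1 CPM in both lines, Krt14 had means of 1.11 CPM for Parental and 8.46 for LM2, and Epcam had means of 0.154 CPM for Parental and 14.96 for LM2. Of the mesenchymal markers, Vim had means of 3898 and 4773 CPM and Col1a1 of 658 and 1329. Pdgfrb, also mesenchymal, was not called, with 49.1 and 47.9 CPM. Among these epithelial markers Krt8 alone was abundant in Parental. Summed markers of leukocytes ranged from 1.81 to 2.09 CPM in Parental and from 2.55 to 3.25 CPM in LM2, without overlap, and those of adipocytes from 0.248 to 0.446 CPM in Parental and from 0.157 to 0.207 CPM in LM2, also without overlap. Those of endothelium ranged from 3.37 to 4.54 CPM over the 6 libraries. Cd68, a macrophage marker, was called higher in LM2, with means of 1.75 and 2.67 CPM, and so was the endothelial marker Cdh5, with 0.18 and 0.67 CPM, while the leukocyte marker Ptprc was at 0.065 and 0.074 CPM and not tested. Pecam1, the more abundant endothelial marker, was not called, with 3.49 and 3.58 CPM. The part of other cells in the results was not tested.

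The family as a whole took a slightly smaller part of the mRNA in LM2. Members held 18.8%, 18.8% and 18.5% of all TPM in Parental replicates 1 to 3, and 17.5%, 17.3% and 17.3% in LM2 replicates 1 to 3. The lines did not overlap, and the means were 18.7% ± 0.187 and 17.4% ± 0.105 (SD, n = 3), a ratio of 0.930. As shares of estimated counts, which weigh short genes less, the means were 6.28% ± 0.0361 and 5.79% ± 0.0936. The large subunit took 10.8% ± 0.111 of TPM in Parental and 10.0% ± 0.0406 in LM2, and the small subunit 7.91% ± 0.0753 and 7.31% ± 0.0640. Both subunits took smaller shares in LM2, with ratios of 0.933 and 0.924. The summed TPM of the large over the small subunit was 1.36 ± 0.00122 in Parental and 1.37 ± 0.00645 in LM2 (SD, n = 3), without overlap. These sums hold the small-subunit members Rps12, Rps26 and Rps15 on chromosome 10, with means of 3528, 2252 and 4850 TPM in Parental. In LM2 they had 2343, 1617 and 3494. Rpl41, a large-subunit member there, had 4339 and 3139. The 5 members on chromosome 4, from both subunits, rose instead. Shares and ratio were not computed without these chromosomes, so whether the subunits differ apart from them was not tested. In a bulk sample of cultured cells, a lower share in all cells and a shift in the mix of cells cannot be told apart.

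Levels spread widely between members although most of their proteins enter the ribosome in equal numbers. Among the 80 members that were tested, the mean TPM in Parental ran from 98.9 for Rpl5 to 6975 for Rpl13, with a median of 2017. In the large subunit, Rpl13, Rpl32 and Rplp1 were among the most abundant by TPM, and in the small subunit Rps2, Rps15, Rps18 and Rps29. Rpl13, a protein of the solvent side of the large subunit, was listed at 7019.8, 7067 and 6838 TPM in Parental replicates 1 to 3 and 6577, 6439 and 6460.1 TPM in LM2 replicates 1 to 3. Rps2, which sits at the entry of the mRNA channel, was listed at 6109, 6160.3 and 6093 TPM in Parental replicates 1 to 3 and 5855, 5773 and 5643 TPM in LM2 replicates 1 to 3. Every LM2 library lay below every Parental library for both genes. Rplp1, a stalk protein, was listed at 5199.8, 5015 and 5177 TPM in Parental replicates 1 to 3 and 5269.9, 5146 and 5148 TPM in LM2 replicates 1 to 3, with overlapping lines. Rpl5, at the other end, binds the small ribosomal RNA of the large subunit and was listed at 98.4, 94.2 and 104 TPM in Parental replicates 1 to 3 and 94.3, 91.7 and 92.9 TPM in LM2 replicates 1 to 3; that level rests on how reads were split with a pseudogene, described further below. Rpl3l, Rpl10l and Rpl39l, paralogs known from muscle and testis, did not pass the filter on low counts. Rpl10l and Rpl39l were at 0 counts in all 6 libraries, and Rpl3l had 2 counts each in Parental replicate 1 and LM2 replicate 1, 1 in LM2 replicate 3 and 0 elsewhere.

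Gene by gene, most members were lower in LM2, by small amounts. Of the 80 tested members, 57 were lower, 5 were higher and 18 were not called by edgeR's quasi-likelihood test at an adjusted p below 0.05. Over all 13247 tested genes 31.1% were called lower and 31.4% higher, and 62.4% in either direction. Among the 2468 other genes of at least 100 CPM, a class nearer to the members in abundance, 41.7% were called lower and 36.4% higher. The median log2 fold change, LM2 minus Parental, was -0.10 over the members and -0.0037 over all tested genes. The median absolute log2 fold change was 0.11 for members and 0.24 for all tested genes, which include scarcer genes than the members. Members thus moved mostly in the same direction. Whether they moved by less than genes of like abundance was not tested. Of the 62 called members, 51 had an absolute log2 fold change below 0.25 and 8 had one above 0.4. In 56 members all LM2 libraries lay below all Parental libraries and in 4 all lay above, against 33.6% and 33.4% of all tested genes.

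The libraries of a line were close to each other. The coefficient of variation of a member over the 3 libraries of a line had a median of 1.76% in Parental and 2.30% in LM2, and at most 4.84% and 6.99%. Relative to the Parental mean of each gene, the median member stood at 0.0075, 0.0064 and -0.013 (log2, with 0.5 CPM added) in Parental replicates 1 to 3 and at -0.063, -0.13 and -0.11 in LM2 replicates 1 to 3. LM2 replicate 1 thus lay nearer to Parental than the other LM2 libraries, and without it 64 members were lower and 4 higher, with a median of -0.13. The share of all tested genes called without that library is not reported here, so these counts do not compare members with other genes.

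Both subunits moved in the same direction. In the large subunit 31 of 48 tested members were lower and 2 higher, with a median log2 fold change of -0.087. In the small subunit 26 of 32 were lower and 3 higher, with a median of -0.11. Relative to the Parental mean, the median member of the large subunit stood at -0.052, -0.11 and -0.10 in LM2 replicates 1 to 3 and that of the small subunit at -0.080, -0.14 and -0.13, so the small subunit was slightly lower in each LM2 library. The difference between subunits was not tested. Off chromosomes 4 and 10, 30 of 45 large-subunit members and 23 of 26 small-subunit members were lower and 0 higher. Of the 11685 other tested genes off these chromosomes, 30.9% were lower and 29.7% higher. The position of a gene went with larger differences, as the plot of members by chromosome shows.

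**Figure D1:**
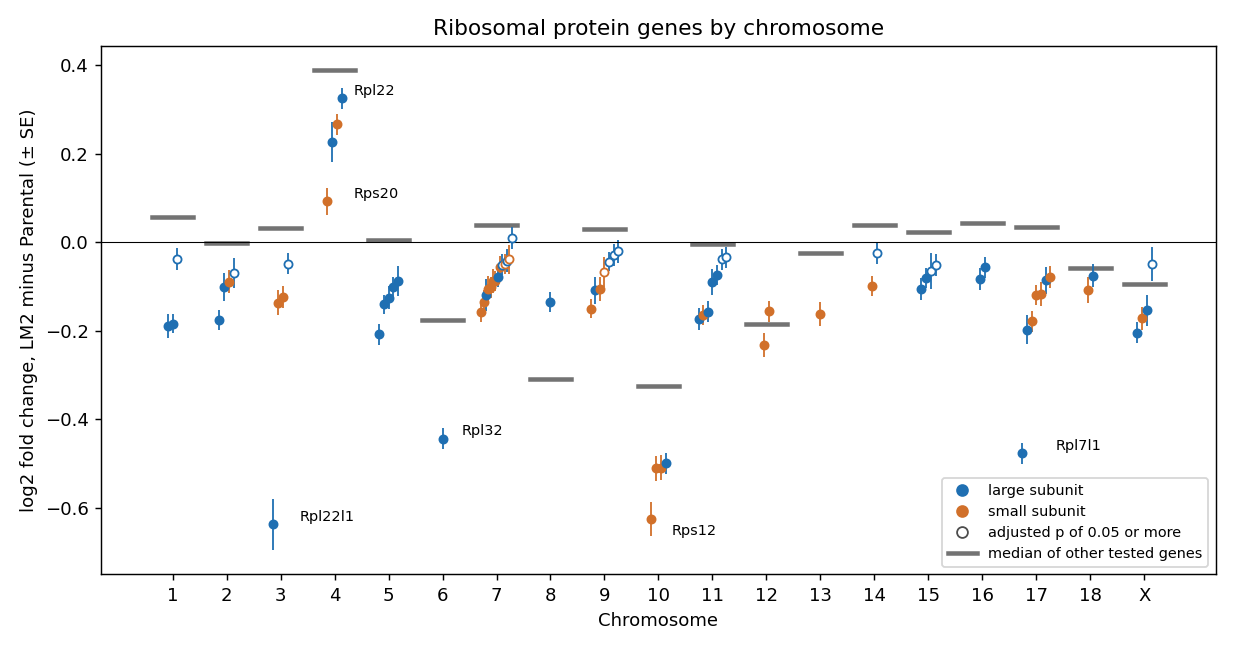
Log2 fold change (LM2 minus Parental, ± SE, 3 libraries per line) of 78 of the 80 tested members, by chromosome; filled points passed an adjusted p below 0.05, and grey bars are the median of the other tested genes of the chromosome. The 4 members drawn on chromosome 4 lie above 0, the 4 on chromosome 10 lie between -0.63 and -0.50, and most others lie between -0.25 and 0.

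All 5 members that rose were the 5 members on chromosome 4. Rpl22 (ENSMUSG00000028936), an RNA-binding protein near the exit of the peptide tunnel, was at 379.8, 377 and 369.7 CPM in Parental replicates 1 to 3 and 479, 459.9 and 471 CPM in LM2 replicates 1 to 3. Its libraries did not overlap between lines, and its log2 fold change was 0.32 ± 0.024 (SE; edgeR adjusted p = 1.17e-10), or 1.25-fold. Rps6 (ENSMUSG00000028495), the ribosomal protein that S6 kinases phosphorylate below mTOR, was at 935, 913 and 882 CPM in Parental replicates 1 to 3 and 1098, 1089.6 and 1096 CPM in LM2 replicates 1 to 3. It was higher in every LM2 library than in any Parental library, with a log2 fold change of 0.27 ± 0.024 (SE; edgeR adjusted p = 2.41e-09). Rpl11 (ENSMUSG00000059291), which with Rpl5 can bind Mdm2 and so stabilise p53, was at 464, 468 and 466 CPM in Parental replicates 1 to 3 and 589, 523 and 523 CPM in LM2 replicates 1 to 3. LM2 replicate 1 was the highest of its libraries, the lines did not overlap, and the log2 fold change was 0.23 ± 0.044 (SE; edgeR adjusted p = 0.00194). Rps20 (ENSMUSG00000028234), of the small subunit head, rose least and was at 414, 401 and 396 CPM in Parental replicates 1 to 3 and 449, 409.7 and 434 CPM in LM2 replicates 1 to 3. LM2 replicate 2 fell between the Parental libraries, and the log2 fold change was 0.093 ± 0.030 (SE; edgeR adjusted p = 0.0117), a call that 6 of the alternative settings did not keep. On the same chromosome 73.4% of the 824 other tested genes were called higher and 4.61% lower, with a median of 0.39, so the median of 0.27 over the 5 members lay below that of the genes around them.

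The 4 members on chromosome 10 were among the 5 largest falls. Rps12 (ENSMUSG00000061983), of the small subunit beak, was at 911, 904 and 905 CPM in Parental replicates 1 to 3 and 629.9, 559 and 575 CPM in LM2 replicates 1 to 3. The lines were far apart relative to their spread, and the log2 fold change was -0.63 ± 0.038 (SE; edgeR adjusted p = 5.44e-08), which is 1.54-fold lower. Rps26 (ENSMUSG00000025362), which contacts the mRNA at the exit channel, was at 743, 708 and 718 CPM in Parental replicates 1 to 3 and 529, 496 and 497 CPM in LM2 replicates 1 to 3. Rps15 (ENSMUSG00000063457), whose tail reaches the decoding site, was at 965, 960.3 and 994 CPM in Parental replicates 1 to 3 and 719, 666 and 666 CPM in LM2 replicates 1 to 3. Their log2 fold changes of -0.51 ± 0.028 and -0.51 ± 0.029 were nearly equal (SE; edgeR adjusted p = 9.35e-13 and 1.05e-11). Rpl41 (ENSMUSG00000093674), a tiny basic peptide at the interface of the subunits, was at 1083, 1038 and 1088 CPM in Parental replicates 1 to 3 and 774, 743 and 752 CPM in LM2 replicates 1 to 3. It had a log2 fold change of -0.50 ± 0.025 (SE; edgeR adjusted p = 1.15e-13), and in none of the 4 genes did an LM2 library reach a Parental one. Of the 658 other tested genes on chromosome 10, 62.6% were called lower and 10.8% higher, with a median of -0.33. The median of the 4 members, -0.51, lay below that of the other genes. The plot of both chromosomes by library shows the 4 genes, of which Rps12 fell farthest.

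**Figure D2:**
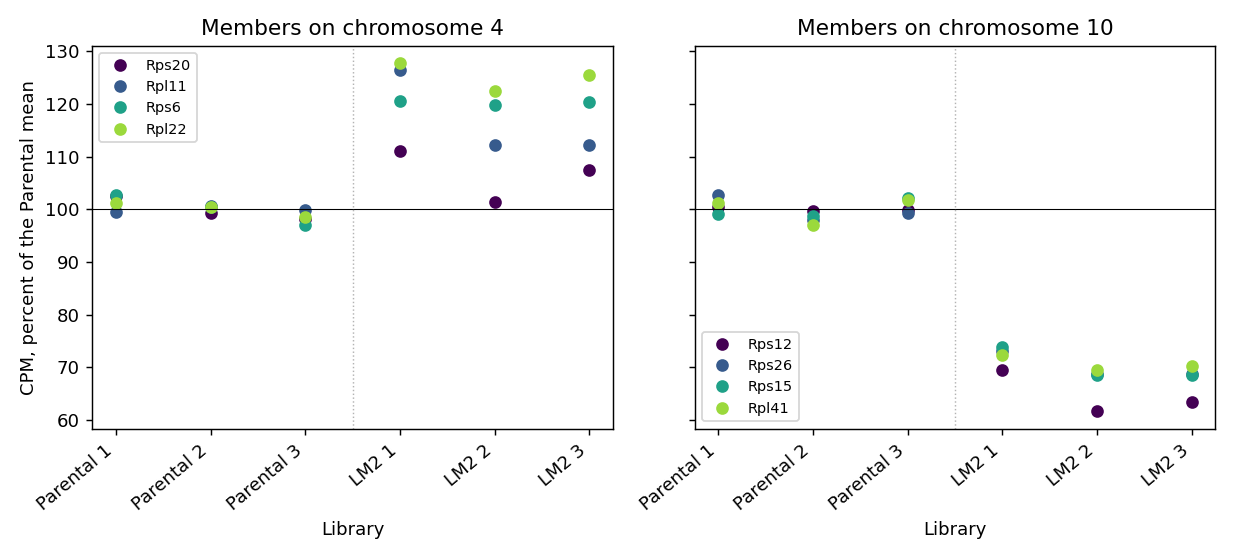
CPM of 4 members on chromosome 4 (left) and the 4 on chromosome 10 (right) in each library, as percent of the gene's mean over the 3 Parental libraries; the axis does not start at 0. On chromosome 4 those drawn other than Rps20 lie above all Parental values in each LM2 library, Rps20 comes within the Parental range in LM2 replicate 2, and the 4 members on chromosome 10 lie below 75% in all LM2 libraries.

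Away from chromosome 10, Rpl32, Rpl22l1 and Rpl7l1 fell by more than 0.4 on the log2 scale. On chromosome 8, Rpl13 had a log2 fold change of -0.14 ± 0.022 (SE; edgeR adjusted p = 1.55e-05). Of the 700 other tested genes of chromosome 8, 64.4% were lower, with a median of -0.31. Rpl32, the single member on chromosome 6, was at 1179, 1192 and 1184 CPM in Parental replicates 1 to 3 and 893, 879 and 842 CPM in LM2 replicates 1 to 3, without overlap. Its log2 fold change was -0.44 ± 0.024 (SE; edgeR adjusted p = 5.7e-13), and the 616 other genes of that chromosome had a median of -0.18. Rpl22l1 on chromosome 3 and Rpl7l1 on chromosome 17 are paralogs and are taken up below.

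Each member was also set beside the 20 tested genes nearest to it on its chromosome, 10 on each side where there were as many. The neighbours had a median log2 fold change of -0.42 for Rps12, -0.35 for Rps26, -0.33 for Rps15 and -0.31 for Rpl41. They had 0.49 for Rpl22, 0.33 for Rps6, 0.23 for Rpl11 and 0.48 for Rps20, the last over 14 neighbours. Rpl13 and its neighbours, at -0.14 and -0.10, lay close together. By contrast Rpl22l1 and Rpl7l1 fell among neighbours with medians of 0.031 and 0.12. Across the 80 members the correlation of a member's value with that of its neighbours was r = 0.65 (Spearman rho 0.39), as a description over genes that share their libraries. Without chromosomes 4, 8 and 10 it was r = 0.11 (rho 0.092) over 69 members, which the plot of members and neighbours shows as a flat band. In that band 51 of 69 members were lower and 0 higher, with a median of -0.10. Over all 13247 tested genes, on every chromosome, 31.1% were lower and 31.4% higher. The 18 that edgeR's test did not call lay there too, and over all 80 members 67 had an unadjusted p below 0.05.

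**Figure D3:**
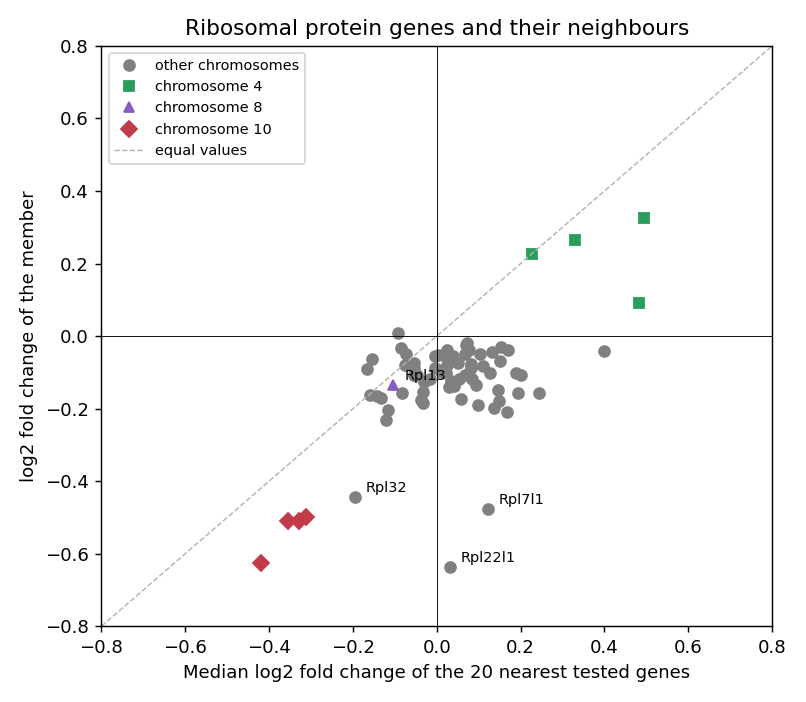
Log2 fold change (LM2 minus Parental) of 78 of the 80 tested members against the median log2 fold change of the 20 nearest tested genes, with the dashed line at equal values. Members of chromosomes 4 and 10 lie toward opposite corners, most of them below the line and Rps20 well below it, and most others form a band at about -0.10 whatever their neighbours do.

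By place in the ribosome, the stalk of the large subunit, which recruits translation factors, had 2 members lower and 0 higher of 4. Rplp0, its base, was at 2684, 2785 and 2684 CPM in Parental replicates 1 to 3 and 2485, 2476 and 2435 CPM in LM2 replicates 1 to 3, without overlap, and Rplp2 at 698, 714 and 685 CPM in Parental replicates 1 to 3 and 674, 603 and 654 CPM in LM2 replicates 1 to 3, with LM2 replicate 2 lowest. Their log2 fold changes were -0.14 ± 0.022 and -0.12 ± 0.036 (SE; edgeR adjusted p = 6.5e-06 and 0.0132). Rplp1 and Rpl12, a protein at the foot of the stalk, did not pass, at -0.020 ± 0.026 and -0.070 ± 0.033 (edgeR adjusted p = 0.519 and 0.0764). Rpl5 and Rpl11, which join the assembling ribosome together as one particle with its small RNA, parted in direction. Rpl11 rose as given above, while Rpl5 was at 95.4, 89.7 and 97.6 CPM in Parental replicates 1 to 3 and 91.4, 87.0 and 87.8 CPM in LM2 replicates 1 to 3 and had -0.088 ± 0.034 (SE; edgeR adjusted p = 0.0293), with LM2 replicate 1 inside the Parental range.

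Of 9 proteins that line the peptide exit tunnel or its mouth, 5 were lower and 1, Rpl22, was higher, with a median of -0.075. Rpl26, at the tunnel mouth, was at 717, 692 and 681 CPM in Parental replicates 1 to 3 and 620.3, 628 and 626 CPM in LM2 replicates 1 to 3, and Rpl39, a small protein in the tunnel wall, at 132, 124 and 129.8 CPM in Parental replicates 1 to 3 and 120.4, 109.6 and 117 CPM in LM2 replicates 1 to 3. Both lay wholly below Parental in LM2, with log2 fold changes of -0.16 ± 0.024 and -0.15 ± 0.034 (SE; edgeR adjusted p = 6.94e-06 and 0.000597). Rpl35, Rpl17 and Rpl19 had -0.10, -0.075 and -0.075 and were also called lower. Rpl4, Rpl23a and Rpl31 did not pass, at -0.044, -0.034 and -0.038 (edgeR adjusted p = 0.0744, 0.232 and 0.202). Of 14 proteins of the small subunit head 12 were lower and 1, Rps20, was higher, with a median of -0.11. Rps29, a zinc-binding protein of the head and one of the most abundant members, was at 508, 481 and 499 CPM in Parental replicates 1 to 3 and 437, 412 and 418 CPM in LM2 replicates 1 to 3, without overlap, with a log2 fold change of -0.23 ± 0.027 (SE; edgeR adjusted p = 1.34e-07). Of 19 members in which mutations cause Diamond-Blackfan anaemia, a failure of red cell production, 15 were lower and 1, Rpl11, was higher, with a median of -0.10. The counts of these groups can be read against the 31.1% of all tested genes that were lower.

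Some ribosomal proteins have a paralog, and these gave some of the larger differences. Rpl22l1, which can take the place of Rpl22, was at 24.1, 22.4 and 22.8 CPM in Parental replicates 1 to 3 and 15.1, 13.9 and 15.5 CPM in LM2 replicates 1 to 3. Every LM2 library was lower, and its log2 fold change of -0.64 ± 0.058 (SE; edgeR adjusted p = 3.13e-09) was the largest fall of any member, while Rpl22 showed the largest rise. Rpl22l1 made up 5.15%, 4.82% and 5.02% of the summed TPM of the pair in Parental replicates 1 to 3 and 2.59%, 2.52% and 2.71% in LM2 replicates 1 to 3. The means were 4.996% ± 0.167 and 2.61% ± 0.0987 (SD, n = 3), without overlap, which is p = 0.1 in a two-sided exact permutation test and the smallest p that 3 against 3 libraries can give. Rpl7l1, a relative of Rpl7 known for ribosome assembly, was at 228, 227 and 228 CPM in Parental replicates 1 to 3 and 166, 162 and 163 CPM in LM2 replicates 1 to 3. Its log2 fold change was -0.48 ± 0.024 (SE; edgeR adjusted p = 1.85e-13), against -0.18 ± 0.022 for Rpl7. Its share of the pair went from 11.8% ± 0.239 to 9.63% ± 0.0867 of TPM (exact permutation p = 0.1). Rps27l, which p53 can induce, was at 106, 105 and 102 CPM in Parental replicates 1 to 3 and 105, 95.1 and 97.9 CPM in LM2 replicates 1 to 3, with overlapping lines. It did not pass, at -0.067 ± 0.034 (edgeR adjusted p = 0.0983), whereas Rps27 had -0.14 ± 0.029 (adjusted p = 0.000316). The share of Rps27l was 18.3% ± 0.329 in Parental and 19.1% ± 0.155 in LM2 (exact permutation p = 0.1). Adjusted over the 3 pairs, each p stayed at 0.1. Of the partners of the other paralogs, Rpl3 was lower, at -0.081, and Rpl10 did not pass, at -0.050. Rps4x, whose relative Rps4l is a pseudogene and was left out, was lower, at -0.17.

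Reads of a member can also fit its pseudogene copies, and the counting splits them. The median member shared 24.6% of its 31-base words with other genes, with a range of 0 to 94.1%. Pseudogenes, by gene type or symbol, with at least 50% of their words in a member numbered 302, belonging to 68 members, and for 16 members they took over 10% of the counts of member and copies together. The largest shares were those of Rpl5 and Rpl12. Of the counts of Rpl5 and its copies 93.0% were assigned to the copies, nearly all to Gm15500, whose words occurred in Rpl5 to 99.9%. Gm15500 was at 1263, 1269 and 1248 CPM in Parental replicates 1 to 3 and 1166, 1179 and 1146 CPM in LM2 replicates 1 to 3, in each library the larger part of the group. Summed, the Rpl5 group was at 1359.8, 1360.5 and 1346 CPM in Parental replicates 1 to 3 and 1258, 1267 and 1235 CPM in LM2 replicates 1 to 3, without overlap, with a log2 fold change of -0.11 (edgeR adjusted p = 7.95e-05). The low TPM of Rpl5 given above is therefore a value after this split.

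For Rpl12 the copies took 90.8%, nearly all in Gm10275, a copy on chromosome 10, while Rpl12 itself lies on chromosome 2. Gm10275 was at 1108, 1126 and 1095 CPM in Parental replicates 1 to 3 and 929.5, 908 and 917 CPM in LM2 replicates 1 to 3, and its log2 fold change was -0.27. Of its words 96.0% occurred in Rpl12. Summed, the group had a log2 fold change of -0.25 (edgeR adjusted p = 7.98e-10), against -0.070 and no call for Rpl12 alone. Rpl11 showed another relation, since its main copy, Gm10288 on chromosome 3, took most of the 25.0% of counts outside Rpl11 and had a log2 fold change of 0.24, close to that of Rpl11 on chromosome 4, while other genes of chromosome 3 had a median of 0.032. Rpl10, a late-joining protein at the interface of the subunits, was not called alone but had -0.17 (edgeR adjusted p = 9.56e-07) with its copies, of which Rpl10-ps3, a pseudogene by its symbol that the annotation types as protein-coding, had -0.46. Rps20, with Gm4332, had 0.080 and was no longer called (edgeR adjusted p = 0.0902). Of the members on chromosomes 4 and 10, Rpl11 and Rps20 alone had over 10% of their group in copies. With all such copies added to their members, 60 members were lower and 4 higher. The share of all tested genes called in that setting is not reported here.

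**Figure D4:**
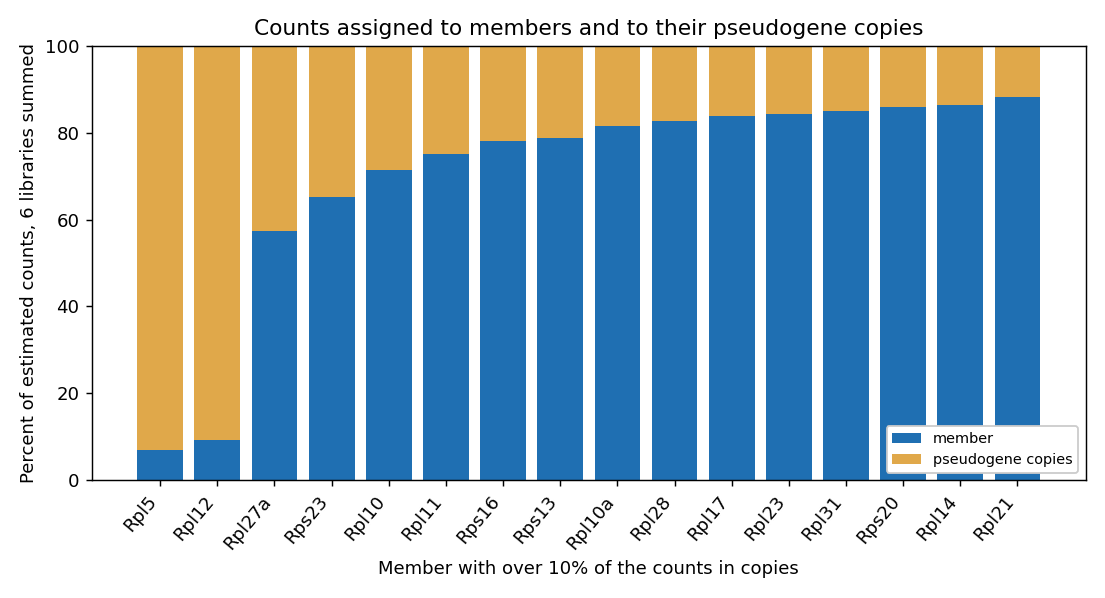
Percent of the estimated counts of a member and its pseudogene copies that were assigned to the member (blue) and to the copies (orange), summed over the 6 libraries, for the 16 members with over 10% in copies. Rpl5 and Rpl12 hold under 10% of the counts of their group, and the other members hold more than 50%.

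Rps24, a small-subunit protein whose mRNA is spliced in several forms at its 3′ end, had 12 annotated transcripts. Rps24-201 took 60.1%, 59.9% and 62.1% of the gene's TPM in Parental replicates 1 to 3 and 58.2%, 58.8% and 59.5% in LM2 replicates 1 to 3. Rps24-202 took 35.0%, 35.0% and 32.5% in Parental and 36.8%, 36.5% and 35.6% in LM2. Neither form overlapped between the lines, with p = 0.1 in the two-sided exact permutation test, but the differences of -1.83 and 2.14 percentage points were little more than the Parental SDs of 1.24 and 1.44. By estimated counts the share of Rps24-201 did overlap, with an exact permutation p of 0.2.

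The other parts of the translation machinery were mostly lower as well, with medians farther below 0 in several lists, as the plot of the lists shows; the differences between lists were not tested. Among ribosomal proteins that the symbol rule misses, Fau, Rpl36al and Rack1 were lower. Rpl36al, a relative of Rpl36a in the large subunit, had -0.20 ± 0.028, and Fau, which makes a fusion of a ubiquitin-like and a small-subunit protein, had -0.077 ± 0.026. Rack1, a signalling scaffold on the small subunit, had -0.059 ± 0.022. Of 18 elongation factors and other genes with TOP mRNAs 15 were lower and 0 higher, with a median of -0.21. Among these were Eef2, the translocation factor (-0.51 ± 0.020), Nap1l1, a histone chaperone (-0.53 ± 0.027), both on chromosome 10, and Tpt1 on chromosome 14 (-0.47 ± 0.030). Of 32 initiation factors 24 were lower and 2, Eif3i and Eif2b3 on chromosome 4, were higher, with a median of -0.17. Eif5, on chromosome 12, fell most, at -0.47 ± 0.025. The lists overlap, since Eif3e, Eif3f, Eif3h, Eif3k, Eif3l and Eif4b stand among both the genes with TOP mRNAs and the initiation factors. Npm1 stands among both the genes with TOP mRNAs and the assembly genes that follow.

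The 75 genes of pre-rRNA processing and ribosome assembly had 59 lower and 5 higher, with a median of -0.23. Nob1 on chromosome 8, the nuclease that matures small-subunit RNA, had -0.82 ± 0.034, and Utp20 and Krr1 on chromosome 10 had -0.74 ± 0.027 and -0.72 ± 0.032. Tex10, Gnl2 and Noc2l, which rose with 0.41, 0.37 and 0.19, lie on chromosome 4, and the others that rose were Nol6 on chromosome 4 and Nop14 on chromosome 5. Of 14 genes of RNA polymerase I and its factors 9 were lower and 0 higher, with a median of -0.14. Its largest subunit gene Polr1a, on chromosome 6, fell from 432 ± 4.88 to 262 ± 9.52 CPM (SD, n = 3; log2 fold change -0.72 ± 0.027). Of 7 chaperones and loaders of ribosomal proteins 5 were lower and 1 higher. Heatr3, on chromosome 8, which is known for handling Rpl5, had -0.89 ± 0.025 and Grwd1 -0.31 ± 0.033, while Aamp rose, with 0.22 ± 0.025. Of 11 genes of ribosome rescue 7 were lower and 1, Zfp598, higher, with a median of -0.28. Among the lower genes was Abce1 on chromosome 8, which splits ribosomes after termination (-0.56 ± 0.025). Of 78 mitochondrial ribosomal protein genes 48 were lower and 8 higher, with a median of -0.14.

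Lists of upstream regulators did not share this direction. Of 20 genes of the mTOR pathway and of binders of TOP mRNAs 6 were lower and 7 higher, with a median of -0.0038. Mtor itself, on chromosome 4, had 0.40 ± 0.068, Sesn2, an inhibitor of the pathway also on chromosome 4, 0.74 ± 0.033, and Pdcd4, a translation inhibitor that the pathway removes, 0.93 ± 0.047. Eif4ebp2, an inhibitor of cap binding, and Ddit4, which dampens mTOR, both on chromosome 10, had -0.47 ± 0.023 and -0.32 ± 0.036. Of 10 tested genes of the MYC network 7 were higher and 1, the scarce Mycl, lower, with a median of 0.34. The list holds both Myc, which drives transcription of ribosomal genes, and antagonists of Myc, so its median mixes both. Myc itself, the most abundant gene of the list, rose, with 0.29 ± 0.023. The risen genes of most change were Mxd4, Mxd1 and Mxi1, which encode antagonists of Myc, with 1.10 ± 0.069, 0.66 ± 0.10 and 0.50 ± 0.040. All values named in the lists are log2 fold changes with SE that passed edgeR's adjusted p below 0.05, against 31.1% of all tested genes lower and 31.4% higher.

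**Figure D5:**
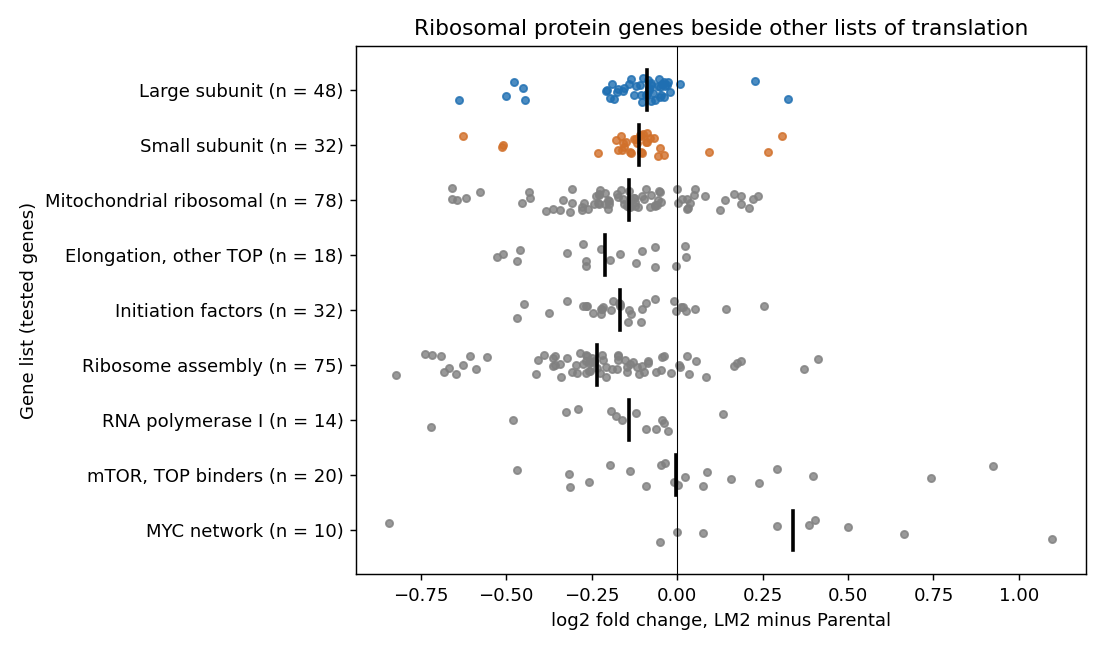
Log2 fold change (LM2 minus Parental) of the tested genes of each list, 1 point per gene, with a black bar at the median. Members of both subunits cluster just below 0 with few genes outside, the assembly list has a median of -0.23, and the MYC network has a median of 0.34.

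In the authors' deposited table of fold changes between the lines, 80 members were listed, with 73 below 0, 6 above 0 and 1 at 0, and a median of -0.10. In the authors' deposited table the values read Rps12 at -0.55, Rps26 at -0.50 and Rpl22 at 0.32. The values of the members in the authors' deposited table and those computed here differed by 0.0096 in the median and by at most 0.11, for Rps25.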

How the data were processed

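RNA of 3 Parental and 3 LM2 libraries, made with an mRNA kit per the labels' protocols, was quantified per transcript. The authors deposited, for each library, estimated counts, TPM and effective lengths of 117486 transcripts, from kallisto 0.46.2 on GRCm39 per the submitters' processing notes. FastQC, MultiQC and edgeR 3.32.1 are named there too. Which transcripts were indexed and how strand was treated is not given in the sources used here. TPM and estimated counts are named so per the file headers. The authors also deposited fold changes per gene symbol on a log scale, with neither base nor direction stated. These deposited values were taken as log2 and as LM2 minus Parental, since they correlated at 0.957 with the values computed here across 10544 genes and those of members differed by a median of 0.0096 in size.

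Transcripts were assigned to genes with GENCODE M21, which is on GRCm38. It also gave gene symbols and types, transcript names and types, chromosome and neighbour order. The words compared between members and other genes came from its transcript sequences, which may differ from those indexed for counting. The 1078 transcripts that did not match, with 0.426% to 0.448% of the counts, were left out. The estimated counts were added up per gene and rounded. After filterByExpr and TMM scaling, edgeR 4.0.16 (R 4.3.3) tested all 13247 remaining genes by its robust quasi-likelihood method, with Benjamini-Hochberg adjusted p below 0.05 and no covariate. The SE of a log2 fold change was derived from it and its F statistic. DESeq2 1.42.0, limma 3.58.1, other scalings, filters, transcript sets and pseudogene sums, and leaving out each library, were alternatives. The members, the lists and the rule for named genes were chosen with earlier results of these data known. That rule took the 8 largest rises and falls among called members, the 4 most abundant of each subunit, the lowest and highest member, the small role groups and the paralogs with their partners, and, from other lists, up to 3 called genes per direction of at least 5 CPM. Rack1, Rps25, Nol6, Nop14, Myc, Mycl and the pseudogene copies were named after their values were seen. A few genes that the rule or the lists gave are not reported here. The symbol Gcn1 of the rescue list was not found.

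Tested on simulated data for the comparison of LM2 and Parental (13247 genes), with 50 genes changed at each size, the test found 58% of the 1.2-fold, 80% of the 1.5-fold, 88% of the 2-fold and 96% of the 4-fold changes; among 169 calls 4.73% were wrong. Recovery below 1.2-fold was not tested, while 51 of the 62 called members had an absolute log2 fold change below 0.25. The share of wrong calls was not tested with as many genes differing as the 62.4% called between the lines. Replicate numbers are shared between the lines, and same-numbered libraries did not deviate together.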

Additional observations from a re-analysis of the deposited data

How the results depend on the processing

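Over 18 alternative settings the number of members lower in LM2 ranged from 51 to 68 and the number higher from 4 to 5, against 57 and 5, and the median over the members stayed between -0.13 and -0.088. Calls over all tested genes are given below for the replicate block alone. For the other settings these counts therefore do not compare members with other genes. Of the 62 called members 48 kept their call in all 18 settings. The other 14 lost it in at least 1, among them Rps20, Rpl5, Rps19 and Rpl24. Rpl28, not called at 0.0094, changed sign to -0.014 without the filter on low counts and ranged from -0.016 (without LM2 replicate 1) to 0.016 (without LM2 replicate 3) as libraries were left out, and the cause was not tested. Leaving out 1 library at a time gave 51 to 64 members lower and 4 to 5 higher. The alternative that added pseudogene copies found by shared words was chosen after seeing the data, with 60 lower and 4 higher. With protein-coding transcripts alone 52 were lower, and with an offset for effective length 54 lower and 4 higher.

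The replicate numbers do not pair the samples, since the deviations of same-numbered libraries from their line's mean correlated at -0.078, 0.045 and 0.015 across genes. With the replicate number as a block 55 members were lower and 5 higher, 4101 and 4149 over all genes, and Rpl24 and Rps19 lost their call.

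Reads shared with pseudogene copies limit the levels of single members, most of all Rpl5 and Rpl12. Paralog and transcript shares cannot pass a threshold of 0.05 with 3 libraries per line.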
